A study of Mus musculus with 12 samples.

Results

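The miR-34 family was followed in mouse liver before and after birth. Its members were taken as every row of the deposited table whose name begins with mmu-miR-34a, mmu-miR-34b or mmu-miR-34c, and 2 of the 355 rows met that rule, mmu-miR-34b-5p and mmu-miR-34c. The third gene of the family, Mir34a, was not analysed here. The livers came from C57Bl/6 mice with no further allele or treatment named, at embryonic day 15.5 (e15.5, both sexes mixed) and from males at 2, 3 and 7 weeks after birth, with 3 samples at each of the 4 ages and 12 in all. Every comparison with e15.5 is therefore also one of mixed sex against males, and the 2 cannot be told apart. Whether an e15.5 sample is 1 embryo or several is not given. If embryos were pooled, the spread at e15.5 is one between pools.

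MicroRNAs (miRNAs) are short RNAs that pair with messenger RNAs through a seed near their 5′ end and lower their output. The miR-34 miRNAs are known as direct transcriptional targets of the tumour suppressor p53, and repress cell-cycle and survival genes such as Cdk4, Cdk6, Ccne2, Met and Bcl2. Mir34a has its own transcript, whereas Mir34b and Mir34c are made from 1 shared primary transcript. miR-34b and miR-34c are best known from testis and from multiciliated epithelia, where the related miR-449 miRNAs are also made. Hepatocytes of the mouse become polyploid around and after weaning, and the title of the series concerns the part of miR-122 in that step, so the 4 ages lie before and during it.

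In the RefSeq tables of build GRCm38.p6 the Mir34c hairpin lies at chr9:51103034-51103110 and the Mir34b hairpin at chr9:51103562-51103645, both on the minus strand and 451 bases apart. Both lie inside the annotated spans of the protein-coding genes Hoatz and Btg4. The Mir34a hairpin lies at chr4:150068454-150068555 on the plus strand and overlaps no other gene of that table. The sequences below show what the family shares, with the seed (bases 2 to 8) in capitals, written 5′ to 3′. The first 4 have the seed GGCAGUG, and miR-34c-5p is known as a member of the same seed group. The last 2, from the opposite arms of the hairpins, have AUCACUA.
mmu-miR-34b-5p (chr9:51103610-51103632, minus): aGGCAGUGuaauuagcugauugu
mmu-miR-34a-5p (chr4:150068473-150068494, plus): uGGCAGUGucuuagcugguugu
mmu-miR-449a-5p (chr13:113037549-113037570, plus): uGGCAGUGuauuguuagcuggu
mmu-miR-449c-5p (chr13:113036008-113036028, plus): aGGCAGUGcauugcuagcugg
mmu-miR-34b-3p (chr9:51103574-51103595, minus): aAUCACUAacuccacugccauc
mmu-miR-34c-3p (chr9:51103044-51103065, minus): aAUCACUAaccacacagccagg
Over an alignment of 23 positions, miR-34b-5p and miR-34a-5p were identical at 19. The 3p arms of miR-34b and miR-34c were identical at 17 of 22. The label mmu-miR-34c names no arm, so none of these sequences was assigned to that probe. Of those shown, miR-34b-5p was in the measured table.

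The assay counts hybridised barcoded probes directly (nanoString nCounter), and the table gives log2 values. The lowest value, -9.97, is log2 of 0.001 and was taken as the floor, at or below background. Between 159 and 311 of the 355 probes per liver were above it, and 114 exceeded it in each of the 12. The summed linear signal, in order of age, ranged from 148505 to 172057, from 486743 to 618776, from 478381 to 539127 and from 236867 to 267915. The depth of a lane in raw counts is unknown here, so no interval for counting error is given.

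miR-34b-5p was at the floor in 11 of 12 livers. The exception was e15.5 mouse 3, with a log2 value of 3.65 (12.5 linear units), which was also the liver with the most probes above the floor, 311 against 212 and 291 in e15.5 mouse 1 and 2. In that liver miR-34b-5p ranked 258th from the brightest. It was therefore at or below background in all 9 postnatal livers, and no fold change is given for it.

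miR-34c was measured in every liver. In the e15.5 livers of mouse 1, 2 and 3 its log2 value was 8.95, 8.85 and 8.81. At 2 weeks it was 8.31, 8.61 and 8.90, and at 3 weeks 8.35, 8.54 and 8.41. At 7 weeks it was 8.88, 8.82 and 9.06. The 3-week livers were all lower than every e15.5 and every 7-week liver, while the 2-week livers spread across the levels of all the other ages. In linear units all 12 values lay between 317 and 533. The 2 probes of the shared Mir34b and Mir34c transcript thus differed in detection, with miR-34c above the floor in 12 livers and miR-34b-5p in 1. Levels of different probes were not set against each other, because probes differ in efficiency.

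**Figure D1:**
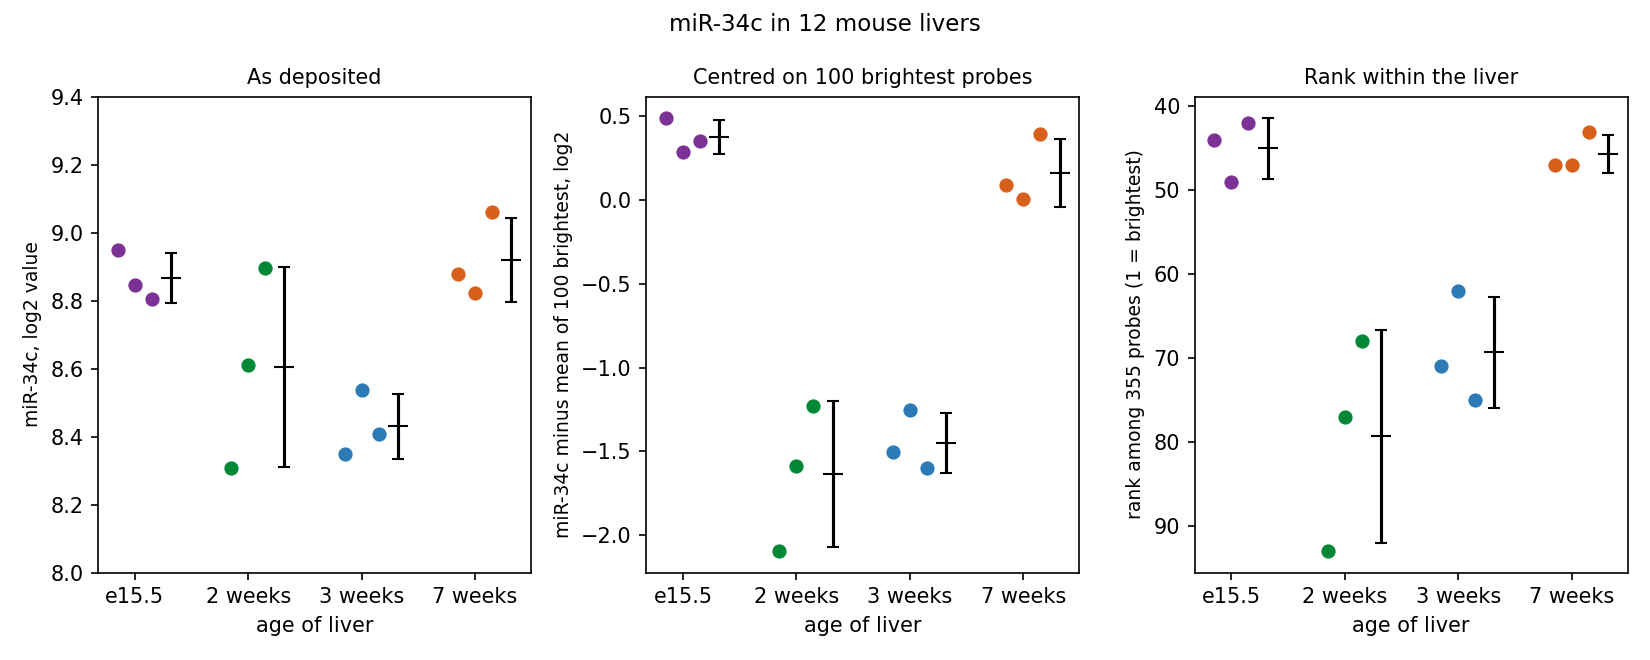
miR-34c in each of the 12 livers at 4 ages: the deposited log2 value (left, axis from 8), the log2 value minus that liver's mean over the 100 probes that were brightest across all livers (middle), and the rank of miR-34c within the liver (right, axis inverted so that brighter is up). Points are livers and black bars are the mean ± SD of 3 livers; the left panel spans 8.31 to 9.06, and in the other panels the 2-week and 3-week livers lie below all e15.5 and 7-week livers.

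As deposited, the mean log2 value of miR-34c, from the youngest to the oldest livers, was 8.87 ± 0.07, 8.60 ± 0.29, 8.43 ± 0.10 and 8.92 ± 0.12 (SD, n = 3 each). The order of the ages was therefore 7 weeks, e15.5, 2 weeks, 3 weeks, and no neighbouring pair in that order was called. Adjusted p-values here and below are from limma over all 355 probes, with 0.05 as threshold and changes given ± SE. miR-34c fell by 0.44 ± 0.15 on the log2 scale from e15.5 to 3 weeks (adjusted p = 0.0297), where 32.7% of all probes were called lower. Of the 114 probes detected in every liver, 21.1% were called lower in that comparison and 64% higher. miR-34c rose by 0.49 ± 0.15 from 3 to 7 weeks (adjusted p = 0.0255), which is 1.40-fold, and 11.8% of all probes were called higher. Among the 114 probes detected in every liver, 2.63% (3 probes, miR-34c among them) were called higher from 3 to 7 weeks and 71.1% lower. Each of these calls was lost when 1 of 4 livers was left out: the first without e15.5 mouse 1 or 2 or 3-week mouse 1 or 3 (adjusted p = 0.0524 to 0.0869), the second without 3-week mouse 1 or 3 or 7-week mouse 1 or 3 (0.0578 to 0.0834).

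The other 4 pairs of ages were not called as deposited. From e15.5 to 2 weeks the change of miR-34c was -0.26 (95% interval -0.60 to 0.07, adjusted p = 0.159), where 50.1% of probes were called in either direction. From 2 to 3 weeks it was -0.17 (-0.51 to 0.16), where 15.8% were called. From 2 to 7 weeks it was 0.32 (-0.02 to 0.65), where 43.4% were called. The 7-week mean differed from that at e15.5 by 0.05 (-0.28 to 0.39), beside 44.8% of probes called. The 2-week livers of mouse 1 and mouse 3 lay about equally far below and above that of mouse 2, and these changes depended on which was left out. Without mouse 3 the changes from e15.5 to 2 weeks and from 2 to 7 weeks were both called, at -0.41 (adjusted p = 0.0299) and 0.46 (adjusted p = 0.0189). Without mouse 1 they were -0.11 (adjusted p = 0.415) and 0.17 (adjusted p = 0.309), and neither was called. The limma F test over the 4 ages gave an adjusted p of 0.0501, with 54.4% of all probes called, and that over the 3 postnatal ages 0.0549, with 41.7% called. The exact permutation F test of miR-34c alone gave p = 0.0425 over 4 ages and 0.10 over the 3 postnatal ages (0.0485 and 0.10 after Benjamini-Hochberg adjustment over 8 such tests).

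The bright probes as a whole moved between the ages, so the same comparison was made relative to them. The mean log2 value of the 100 probes brightest across all livers, in order of age, was 8.49 ± 0.06, 10.24 ± 0.14, 9.88 ± 0.11 and 8.76 ± 0.08 (SD, n = 3 each). Relative to that mean, miR-34c lay at 0.49, 0.28 and 0.35 in the e15.5 livers and at -2.09, -1.59 and -1.23 in the 2-week livers. The 3-week livers lay at -1.50, -1.25 and -1.60, and the 7-week livers at 0.09, 0.01 and 0.39. On this centred scale the 2-week and 3-week livers did not overlap with those of the other ages.

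Centred, miR-34c fell by 2.01 ± 0.21 from e15.5 to 2 weeks (adjusted p = 1.71e-05), which is 4.02-fold lower, where 45.6% of all probes were called lower. It fell by 1.82 ± 0.21 from e15.5 to 3 weeks (adjusted p = 3.03e-05), beside 49.9% of probes called lower. From 3 to 7 weeks it rose by 1.61 ± 0.21 (adjusted p = 0.000234), or 3.05-fold, and from 2 to 7 weeks by 1.80 ± 0.21 (adjusted p = 8.55e-05), while 17.7% and 13.8% of probes were called higher. Among the 114 probes above the floor in every liver, 20.2% and 22.8% were called higher in these 2 comparisons. Of the same 114, 39.5% were called lower from e15.5 to 2 weeks and 39.5% from e15.5 to 3 weeks. Between 2 and 3 weeks the centred change was 0.19 (95% interval -0.28 to 0.65, 12.7% of probes called). The 7-week level differed from e15.5 by -0.21 (-0.68 to 0.25, 46.8% called). The mean of the 100 brightest probes itself moved by 1.75, 1.39, -1.12 and -1.48 in the 4 called comparisons, in the order given. miR-34c as deposited moved by -0.26, -0.44, 0.49 and 0.32, so most of each centred change was that of the reference. The 4 centred calls were kept when any 1 of the 12 livers was left out. Leaving out 1 liver does not remove a shift shared by an age, so the kept calls do not test it. In the exact two-sided permutation test each of the 4 centred changes gave p = 0.10, below which the test cannot go with 3 livers a group.

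**Figure D2:**
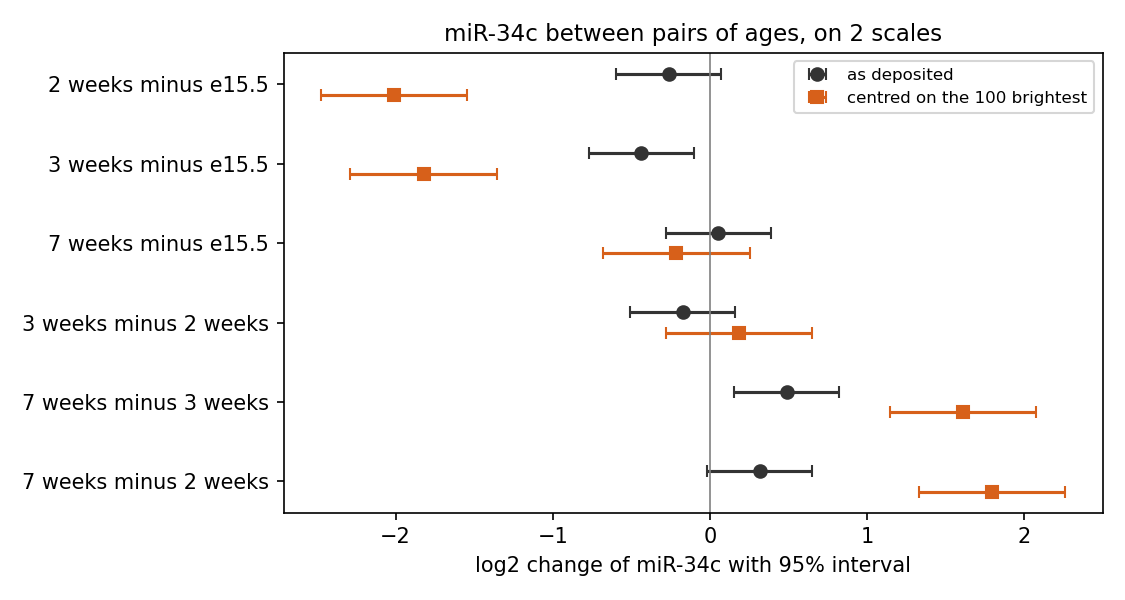
Log2 change of miR-34c for the 6 pairs of ages (points) with 95% intervals from limma (bars), as deposited in black and centred on the 100 brightest probes in orange. The direction is shared by both scales in 4 pairs, and the centred changes are larger there, for example 1.61 against 0.49 from 3 to 7 weeks.

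The rank of miR-34c within each liver does not depend on how livers were scaled. Counted from the brightest of 355 probes, it was 44th, 49th and 42nd in the e15.5 livers, 93rd, 77th and 68th at 2 weeks, 71st, 62nd and 75th at 3 weeks, and 47th, 47th and 43rd at 7 weeks. Its rank was lower in every 2-week and 3-week liver than in any e15.5 or 7-week liver, and the e15.5 and 7-week ranks overlapped. The exact permutation F test of the ranks gave p = 0.00253 over 4 ages (adjusted 0.00779) and 0.0143 over the postnatal ages (adjusted 0.0286). The share of the summed signal taken by miR-34c was 0.290 ± 0.011%, 0.0758 ± 0.0227%, 0.0690 ± 0.0076% and 0.194 ± 0.0079% in order of age (SD, n = 3 each). On this scale, unlike the others, every 7-week liver lay below every e15.5 liver (exact permutation p = 0.10, the lowest possible).

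As deposited, miR-34c differed little between single livers. Its highest liver exceeded its lowest by 0.75 on the log2 scale, the smallest such range among the 114 probes detected in every liver, whose median range was 3.27. It stayed the smallest when any 1 liver was left out. The 30 other probes with a mean within 1 log2 unit of that of miR-34c had ranges from 0.98 to 5.68. Next after miR-34c, chosen after their values were seen, came miR-155, known from activated lymphocytes and macrophages, at 0.98, the broadly expressed miR-16 at 1.08 and miR-741, known from a testis-expressed X-linked cluster, at 1.39. This place depended on the scale: after centring on the 100 brightest probes the range of miR-34c was 2.58, the 55th smallest of 114, and as a share of the total it was 2.56, the 56th smallest. The range of its 4 age means as deposited, 0.49, was the third smallest, with miR-155 smallest at 0.35. Within ages its pooled SD as deposited was 0.17, the 25th smallest, against a median of 0.27.

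**Figure D3:**
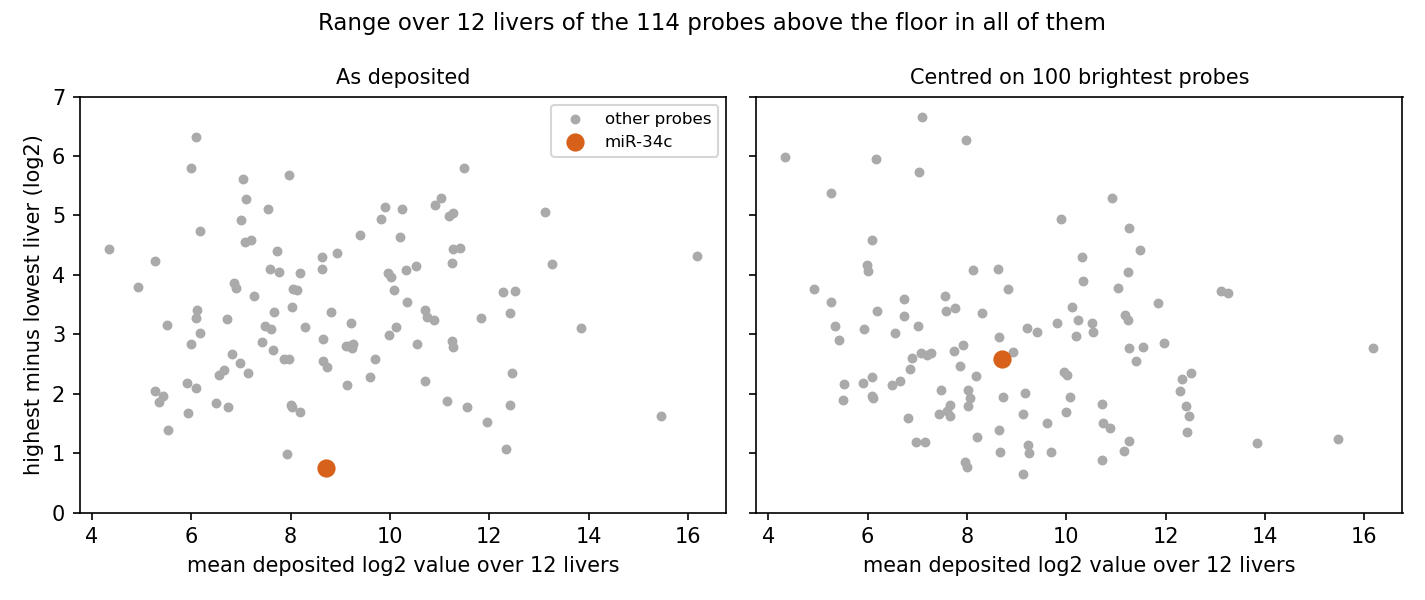
Range over the 12 livers (highest minus lowest log2 value) against the mean deposited log2 value, for the 114 probes above the floor in every liver, as deposited (left) and after centring on the 100 brightest probes (right). miR-34c, in orange, has the smallest range on the left, 0.75, and lies in the middle of the probes on the right, 2.58.

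Likeness of pattern was described by Pearson's r with miR-34c over the 12 livers, among the 113 other probes measured in all of them. The livers share their age and their scaling, so r is given as a description. As deposited 101 of the 113 had an r below 0, with a median of -0.56. The highest values were weak, at 0.44 for miR-543, 0.42 for miR-155, 0.37 for miR-142-5p, 0.35 for miR-130b and 0.28 for miR-539. The lowest were -0.79 for miR-103, -0.78 for miR-130a and -0.77 for miR-107.

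After centring, the most alike were miR-155 (r = 0.94), the haematopoietic miR-142-5p (0.92), miR-1224 (0.88), miR-741 (0.86) and miR-720 (0.81). From youngest to oldest, the centred mean of miR-155 was -0.58 ± 0.45, -2.33 ± 0.63, -2.13 ± 0.14 and -0.66 ± 0.04 (SD, n = 3 each). Like miR-34c it was thus lowest on the centred scale at 2 and 3 weeks and near its fetal level at 7 weeks. As deposited, the means of miR-155 were 7.92 ± 0.49, 7.91 ± 0.49, 7.75 ± 0.16 and 8.10 ± 0.06, with an r of 0.42. Centring takes the same liver mean from every probe, so probes that differ little between livers as deposited become alike through it. The least alike after centring were miR-152 (r = -0.93), miR-28 (-0.82) and the smooth-muscle and stellate-cell miRNA miR-145 (-0.78).

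miR-34c was also set beside 11 other miRNAs whose transcription or processing p53 is known to raise, of which the table held 9, and 7 of these were detected in every liver. They are miR-192 and miR-194, made from shared clusters in hepatocytes and gut, miR-107, miR-22, miR-16, and miR-143 with miR-145, made from 1 cluster. The other 2 were miR-200c, at the floor in 1 of the 3-week livers, and miR-141, at the floor in all livers but 1. From e15.5 to 2 weeks 6 of the 9 rose, none fell and 3 were not called as deposited, beside 28.2% of all probes called higher. Among the 114 probes above the floor in every liver, 67.5% were called higher. The median change of the 9 was 3.16, against -1.34 over all probes and 1.96 over those above the floor in every liver. From e15.5 to 3 weeks 7 of 9 rose, with a median of 3.03. Of all probes 25.6% were called higher, and of those above the floor in every liver 64%. From 3 to 7 weeks 7 of 9 fell and none rose, with a median of -1.10. Of all probes 29.6% were called lower, and of those above the floor in every liver 71.1%. In that interval the median over all probes was 0 and that over the probes above the floor in every liver was -1.09. The counts among the 9 were thus similar in size to the shares of the probes above the floor in every liver. miR-34c, as deposited, moved the other way in both of the last 2 comparisons. It thereby moved against most probes above the floor in every liver, and not against this list in particular. In the marker lists used below, miR-192 and miR-194 are also hepatocyte markers, and miR-143 and miR-145 mesenchymal and stellate ones.

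Among the 7 measured members, miR-194 had mean log2 values of 8.59 ± 0.14, 12.58 ± 0.34, 12.49 ± 0.19 and 11.39 ± 0.03 in order of age (SD, n = 3 each), and rose by 3.99 ± 0.16 (SE) in the first step (adjusted p = 8.32e-09). miR-145 rose by 3.34 ± 0.18 and fell by 1.55 ± 0.18 from 3 to 7 weeks. miR-16, a member of a family that restrains the cell cycle, was the exception, with a change of -0.05 from e15.5 to 2 weeks (adjusted p = 0.825). After centring, 5 of the 9 rose and 1 fell from e15.5 to 2 weeks (19.2% of all probes called higher and 45.6% lower). Among the 114 probes above the floor in every liver, 43.9% were called higher and 39.5% lower. The 1 of the 9 that fell was miR-16 (-1.80 ± 0.15), beside -2.01 for miR-34c. From 3 to 7 weeks 2 rose after centring, miR-22 (0.75 ± 0.12) and miR-192 (0.44 ± 0.14), and none fell, beside 17.7% of all probes called higher and 10.1% lower. A share of 2 in 9 is near that background.

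**Figure D4:**
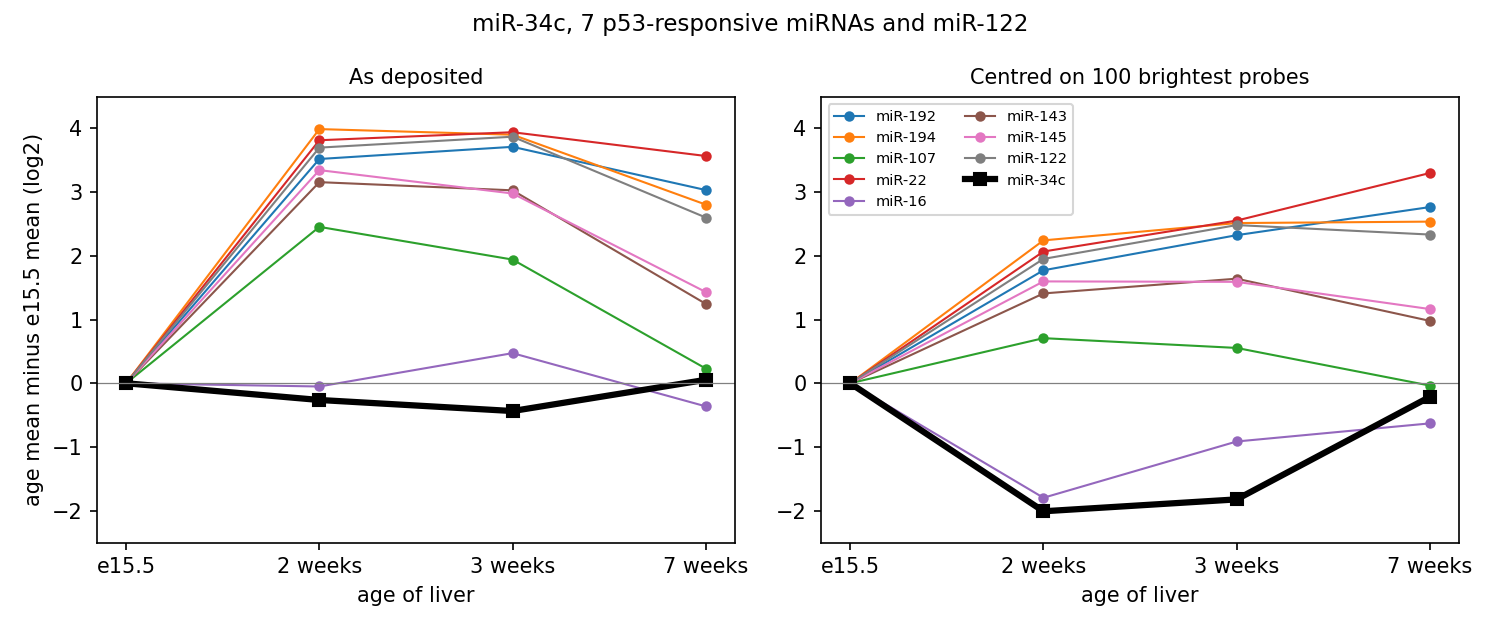
Age means of miR-34c (thick black line), of 7 p53-responsive miRNAs and of miR-122, each minus its own e15.5 mean, on the log2 scale as deposited (left) and centred on the 100 brightest probes (right), n = 3 livers per age. As deposited miR-194 is 3.99 higher at 2 weeks and miR-34c stays between -0.44 and 0.05; after centring the 2-week means of miR-34c and miR-16 lie below their e15.5 means and those of the others above.

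The ratio of miR-34c to another miRNA within a liver is free of any scaling of whole samples, so its change between ages was tested for the 7 measured p53-responsive miRNAs and for miR-122, the dominant hepatocyte miRNA. This comparison was added after the data were seen. The log2 ratio of miR-34c to miR-122 was, in order of age, -4.77 ± 0.24, -8.73 ± 0.60, -9.08 ± 0.13 and -7.32 ± 0.088 (SD, n = 3 each). It was thus 3.96 lower at 2 weeks than at e15.5 and 1.76 higher at 7 than at 3 weeks, with no overlap between the livers in either comparison. A ratio also moves with its partner: as deposited, miR-122 itself changed by 3.70 and -1.27 in these comparisons, and miR-34c by -0.26 and 0.49. To miR-192 the log2 ratio had the means 0.92, -2.87, -3.23 and -2.06 over the same ages. Only the changes of a ratio between ages can be read, since the level of a ratio between probes depends on their efficiencies.

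From e15.5 to 3 weeks the livers did not overlap for 8 of 8 ratios, all lower at 3 weeks, and the same held for 72.6% of the ratios to all 113 other measured probes. From 3 to 7 weeks 8 of 8 were higher without overlap, beside 85% of the 113. In exact permutation F tests over the 4 ages, adjusted by the Benjamini-Hochberg method over all 113 ratios, 8 of the 8 were called (adjusted p = 0.000815 to 0.0263), beside 90.3% of the 113. Over the 3 postnatal ages 6 of the 8 were called, beside 81.4% of the 113. The ratios to miR-192 (adjusted p = 0.0521) and miR-22 (adjusted p = 0.110) were not. The ratios share miR-34c and are not independent, and the shares called among the 8 and among all 113 were alike in size. miR-16 gave the smallest change of the ratio from e15.5 to 2 weeks, -0.21, with overlap between the livers.

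Markers of liver cell types moved across the same ages. In bulk tissue, fewer cells of a type and less RNA per cell cannot be told apart. All 5 hepatocyte markers were above the floor after birth (before birth miR-802 was at the floor throughout), and their summed share of the signal, in order of age, was 8.03 to 10.6%, 33.6 to 41.2%, 42.5 to 46.3% and 36.8 to 37.6%. The 3 erythroid markers took 7.21 to 10.5% at e15.5 and 1.01 to 2.30% after birth, and the 4 leukocyte markers 3.90 to 4.67% and 0.263 to 0.464%. The erythroid members were split as deposited: from e15.5 to 2 weeks miR-451 rose by 0.68 ± 0.20 (limma adjusted p = 0.0171). miR-144 changed by -2.04 ± 0.26 and miR-486 by -3.88 ± 0.31. After centring, all 3 were called lower in that comparison. The leukocyte members did not move alike: from e15.5 to 2 weeks, as deposited, the lymphocyte miRNA miR-150 rose by 4.08 ± 0.26, the myeloid miR-223 fell by 1.23 ± 0.12, miR-142-3p changed by -2.19 ± 0.20, and miR-142-5p was not called. The 5 biliary and other epithelial markers were at 0.107 to 0.157%, 0.265 to 0.362%, 0.128 to 0.186% and 0.0515 to 0.0715% in order of age, with miR-141 at the floor throughout at every age but 3 weeks and miR-429 throughout at 7 weeks. The 2 endothelial markers were highest at 2 weeks (7.20 to 8.21%, against 2.97 to 3.41% at e15.5), and the 5 mesenchymal and stellate markers took 0.584 to 1.29% across the ages, with miR-214 at the floor throughout at 3 weeks. The 2 muscle markers in the table were at the floor in all postnatal livers. None of the miR-449 markers of multiciliated epithelium was analysed here. The part of these shifts in the levels of miR-34c was not tested.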

How the data were processed

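Trizol-extracted RNA of 12 livers was run on the nanoString miRNA panel for mouse, per the labels' protocols. The authors deposited log2 values. Partek 6.6 is named in the submitters' processing notes, and the background subtraction and sample scaling are not given in the sources used here. Replicates are livers numbered as separate mice within an age. The members and lists, and the rule for named probes (members, the 5 most and 3 least alike probes, the p53 list, miR-122), were chosen with earlier results of these data known. The p53 list also named miR-215 and miR-605, not analysed here.

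The deposited values entered the tests unchanged. A model with a mean for each age was fitted to the 12 livers in limma 3.58.1 under R 4.3.3 (functions lmFit, contrasts.fit and eBayes, variance trend on). The two-sided p-values were Benjamini-Hochberg adjusted across the 355 probes of each comparison. Centring subtracted from each liver the mean of the 100 probes brightest over all livers, and floor values move with it. Exact permutation tests enumerated all arrangements of the livers. The steps were tested on simulated data. Alternatives were other scalings, log2(linear + 1) and log2(linear + 10), filters, variances without a trend, fewer ages, leaving out single livers, and blocking on mouse number. Centring with a filter or with a liver left out, and ratios within a liver, were added after the data were seen. Sequences are RefSeq's (GRCm38.p6). Figures were drawn with matplotlib 3.10.9.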

Additional observations from a re-analysis of the deposited data

How the results depend on the processing

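Scaling decided the size of most changes of miR-34c. From e15.5 to 2 weeks the change, not called as deposited, was called when centred on the 100 brightest probes (-2.01, also with only the probes above the floor), centred on the median of those probes (-2.03), taken as a share of the total (-1.98) and after quantile normalisation (-1.76). From 2 to 7 weeks the corresponding values, also called, were 1.80, 1.81, 1.41 and 1.71. The change from e15.5 to 7 weeks turned to -0.21, -0.23, -0.58 (called as a share, adjusted p = 0.0376) and -0.046, and that from 2 to 3 weeks turned to 0.19 and 0.25 with centring and 0.39 after quantile normalisation. The changes from e15.5 to 3 weeks and from 3 to 7 weeks kept direction and call under these 4 scalings (-2.07 to -1.36, and 1.32 to 1.61) but, at -0.44 and 0.49, lost their call without a variance trend (adjusted p = 0.0921 and 0.0975).

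The F statistic over 4 ages (4.75, not called as deposited) was called with 51.0 and 31.3 after centring, 57.5 centred and filtered, 53.3 as a share, 30.4 after quantile normalisation, 4.72 and 5.31 with 1 or 10 added, and 5.39 and 4.38 with the filters on the upper 50% and on the floor. Over the 3 postnatal ages (5.56) these values were 45.0, 27.5, 50.7, 35.3, 30.0, 5.53, 6.23, 6.32 and 5.14, again called.

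With each liver left out, the change as deposited ranged from -0.41 to -0.11 for 2 weeks against e15.5, from -0.49 to -0.39 for 3 weeks against e15.5 and from -0.015 to 0.10 for 7 weeks against e15.5, the turned value being without 7-week mouse 3. It ranged from -0.32 to -0.03 from 2 to 3 weeks, from 0.42 to 0.54 from 3 to 7 weeks and from 0.17 to 0.46 from 2 to 7 weeks. The F statistics ranged from 3.22 to 9.59 and from 3.11 to 11.7, and were called without 2-week mouse 1 or 3. On the centred scale the change from 2 to 3 weeks turned to -0.042 without 2-week mouse 1, and the 6 changes otherwise kept direction and call.

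The mouse number as a replicate block changed no call (adjusted p = 0.0404 for 3 weeks against e15.5 and 0.0406 from 3 to 7 weeks). Deviations of same-numbered livers from their age means had correlations from -0.41 to 0.52, over 0.1 in 7 of 18 pairs. Between differently numbered livers of different ages they ranged from -0.55 to 0.45. The number of all probes called fell from 147 to 69 from 3 to 7 weeks, from 154 to 93 from 2 to 7 weeks and from 56 to 26 from 2 to 3 weeks after quantile normalisation, and from 147 to 97 from 3 to 7 weeks with median centring. With only the probes above the floor, fewer were tested (114), and 95, 97, 87, 37, 87 and 96 were called, against 178, 207, 159, 56, 147 and 154. The ratio between members was not run, because miR-34b-5p was at the floor in 11 livers. The cause of these dependences was not tested.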
